A study of Mus musculus with 12 samples.

Results

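The genes described here are 45 antiviral effectors that interferons induce, chosen by name for their known roles and not by their values. Of the 45, 40 had a probe listed with their symbol and 38 passed the filter on detection, out of 10908 genes tested in all. Where a gene had several detected probes, the brightest on average stood for it. No probe was listed here for Ddx60, Ifi203, Herc6 and Ifi44, and Phf11 was not assigned because its older name is shared by several genes. The probes of Ifit1 and Xaf1 were detected on too few arrays to be tested. Of the 38 tested genes, 30 were detected on all 12 arrays.

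RNA came from bone marrow-derived dendritic cells of mice labelled C57/B6 that carried a floxed Ezh2 gene (Ezh2 f/f). Cells labelled wild type came from Ezh2 f/f mice without Cre, and Ezh2-deficient cells from Ezh2 f/f mice that also carried the Mx-cre transgene. All cultures began with 20 ng/ml GM-CSF and 10 ng/ml IL-4, were given 10 ng/ml GM-CSF alone from day 2 and ran for 6 or 7 days. Immature cells were left untreated, whereas mature cells received LPS, a bacterial lipopolysaccharide that activates Toll-like receptor 4, at 100 ng/ml overnight. Some mature cells were also kept without serum for 6 hours, and the labels do not say which. Each of the 4 groups had 3 arrays, and arrays that share a replicate number are called a set. The Cre transgene is driven by the promoter of Mx, itself an interferon-stimulated gene and one of the genes described here. Whether the mice were given an inducer of that promoter, and whether the replicates were separate animals or cultures, is not given in the sources used here. The p-values therefore measure only the spread between these samples.

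Type I interferons bind a receptor at the cell surface, and the kinases attached to it activate transcription factors, Stat2 among them. A complex that holds Stat2 and Irf9 enters the nucleus and binds the interferon-stimulated response element (ISRE) in the promoters of antiviral genes. In dendritic cells, LPS triggers secretion of interferon beta through the adaptor Ticam1 (TRIF) and the factor Irf3, and that interferon acts back on the same cells. Ezh2 is the methyltransferase of Polycomb repressive complex 2, which marks silent genes with methylated histone H3.

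Promoter sequences are shown for 4 of the genes with large changes after LPS, because they show where the response element lies when it is close to the start of transcription and one case in which it was not found there. The sequences are those of RefSeq (GRCm38.p6), from 250 bases before to 50 bases after the annotated start, written in the direction of transcription. Capitals mark matches to the ISRE core GAAANNGAAA on either strand. Isg15 encodes a ubiquitin-like protein that is attached to other proteins. Its window lies on the minus strand at chr4:156200769-156201068.
Isg15: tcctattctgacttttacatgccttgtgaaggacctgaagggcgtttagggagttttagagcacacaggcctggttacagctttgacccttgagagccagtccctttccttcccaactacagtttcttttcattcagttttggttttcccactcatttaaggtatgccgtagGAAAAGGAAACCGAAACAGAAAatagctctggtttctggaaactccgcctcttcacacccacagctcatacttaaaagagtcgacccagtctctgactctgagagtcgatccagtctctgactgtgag
Ifit3 belongs to a family that binds foreign RNA. Its window lies on the plus strand at chr19:34583279-34583578.
Ifit3: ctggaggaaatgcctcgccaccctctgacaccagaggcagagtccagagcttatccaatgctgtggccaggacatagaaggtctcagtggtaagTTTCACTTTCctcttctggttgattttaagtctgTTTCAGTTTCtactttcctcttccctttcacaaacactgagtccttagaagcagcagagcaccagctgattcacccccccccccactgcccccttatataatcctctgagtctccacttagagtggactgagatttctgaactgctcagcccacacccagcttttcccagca
Rsad2 (viperin) encodes a radical enzyme that makes a chain-terminating nucleotide. Its window lies on the minus strand at chr12:26456403-26456702.
Rsad2: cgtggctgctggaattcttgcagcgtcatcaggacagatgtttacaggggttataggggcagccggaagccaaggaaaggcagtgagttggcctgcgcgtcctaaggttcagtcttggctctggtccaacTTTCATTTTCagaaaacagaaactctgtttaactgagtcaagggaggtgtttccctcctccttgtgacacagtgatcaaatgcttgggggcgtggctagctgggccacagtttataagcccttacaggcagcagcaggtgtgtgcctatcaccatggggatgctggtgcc
Oasl1 encodes a relative of the 2-5A synthetases that restrains translation of Irf7 in mice. Its window lies on the plus strand at chr5:114922990-114923289.
Oasl1: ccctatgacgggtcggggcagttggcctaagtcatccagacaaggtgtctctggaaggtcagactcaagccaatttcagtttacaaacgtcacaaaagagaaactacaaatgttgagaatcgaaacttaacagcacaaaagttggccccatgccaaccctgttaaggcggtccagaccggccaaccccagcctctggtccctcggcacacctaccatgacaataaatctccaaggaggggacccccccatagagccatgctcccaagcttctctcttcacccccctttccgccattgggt
In Isg15, 3 overlapping matches began at -78, -72 and -66, counted in bases from the start. Both matches in Ifit3 lay on the opposite strand, beginning at -156 and -122, and the single match in Rsad2 began at -120. The Oasl1 window held no match to these letters.

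Of the 45 genes, 32 had an entry in the set of RefSeq promoters used here, and 15 of these 32 (46.9%) held the ISRE core in a window of 300 bases. The others, Mx1, Mx2 and Usp18 among them, had no entry in that set and were not searched. The core was present in 3.99% of 27025 mouse genes with such a promoter. Among the genes tested on the arrays, 12 of 26 antiviral genes (46.2%) held it, against 3.91% of 8893 genes. Of 34 genes of interferon production and signalling with a promoter, 7 (20.6%) held it. The second interferon motif, the GAS element TTCNNNGAA, was found in 9 of 32 antiviral genes (28.1%) and in 9.55% of all genes, with 2 of its 9 matches overlapping an ISRE match. Matches near the start were not limited to genes with large changes: Ifitm3 had 2 matches just after the start and Eif2ak2 had 1 there, while Ifit2, Cmpk2, Isg20 and Oasl2 had none in these windows.

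**Figure D1:**
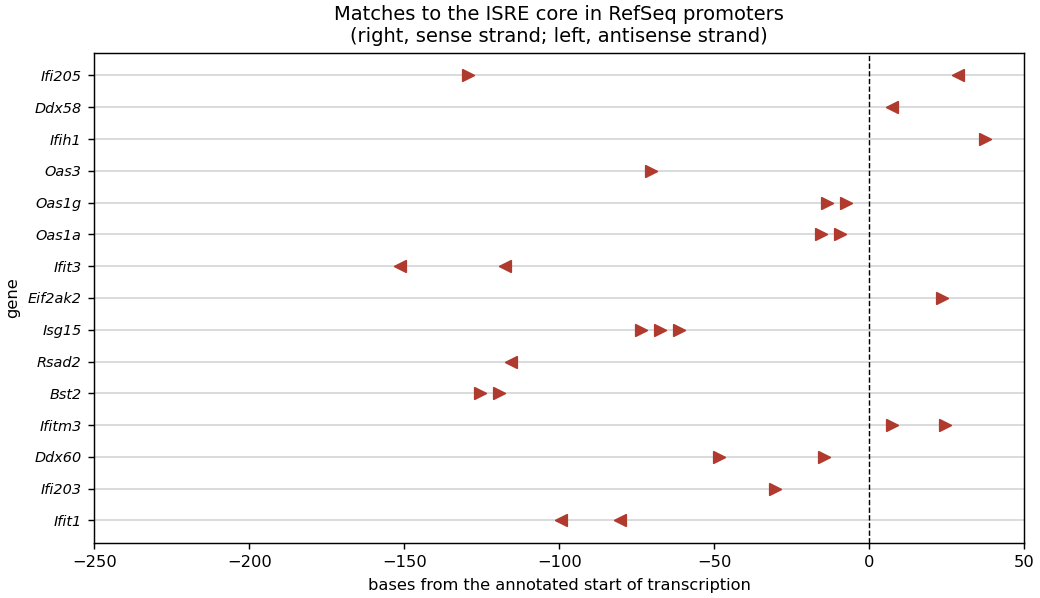
Position of each ISRE core match (arrowheads; right, sense strand; left, antisense strand) in the RefSeq promoters of the 15 genes that held one, in bases from the annotated start (dashed line). The first bases of the matches lay between -156 and 33.

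Per array, 17892 to 19611 of 45281 probes were detected, and the median intensity ran from 108 to 119. On the 8 arrays of sets 1 and 2 the antiviral genes separated the stages. On set 3 they ran against the labels of the wild type pair: the median log2 level of the 38 genes was 11.1 on the library labelled wild type immature and 7.01 on that labelled wild type mature. The array labelled Ezh2-deficient immature had a median of 7.35, and that labelled Ezh2-deficient mature a median of 11.1. Cdkn2a, a known Polycomb target, had log2 levels of 7.49, 7.28, 7.84 and 7.53 on the Ezh2-deficient arrays of sets 1 and 2 and of 4.55, 4.84, 5.04 and 5.03 on the wild type ones, but of 8.08 and 7.63 on the arrays labelled wild type in set 3 and of 4.71 and 4.57 on those labelled Ezh2-deficient. The Ezh2 probe used did not separate the genotypes (log2 levels of 9.57 to 10.97 in wild type and of 9.39 to 11.18 in Ezh2-deficient cells of sets 1 and 2), and where it lies relative to the deleted part was not examined. A second Ezh2 probe was at 6.58 and 6.03 on the wild type immature arrays against 4.96 and 5.06 on the Ezh2-deficient ones, and at 6.90 and 7.03 against 6.10 and 6.61 on the mature arrays. On set 3 its level was 6.56 for the immature library labelled wild type against 5.98 for the immature one labelled Ezh2-deficient, and 5.14 against 7.19 for the mature libraries. Il6, a cytokine gene outside the 38, also ran against the stage labels of the wild type pair in set 3. Its log2 level was 11.99 under the immature and 4.93 under the mature label. The Ezh2-deficient pair of set 3 kept the order of its labels (5.90, then 12.08). In wild type cells of sets 1 and 2, Il6 went from 6.45 and 6.02 to 11.82 and 12.32. Tests therefore use sets 1 and 2, with 2 arrays per group, and set 3 is given apart. The antiviral genes themselves entered this choice, and the p-values of their LPS changes do not allow for it. Of 15 genes listed as markers of dendritic cells, 14 passed the filter. Cd74 and Itgax were among them and were detected on every array, whereas Flt3 was not detected.

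**Figure D2:**
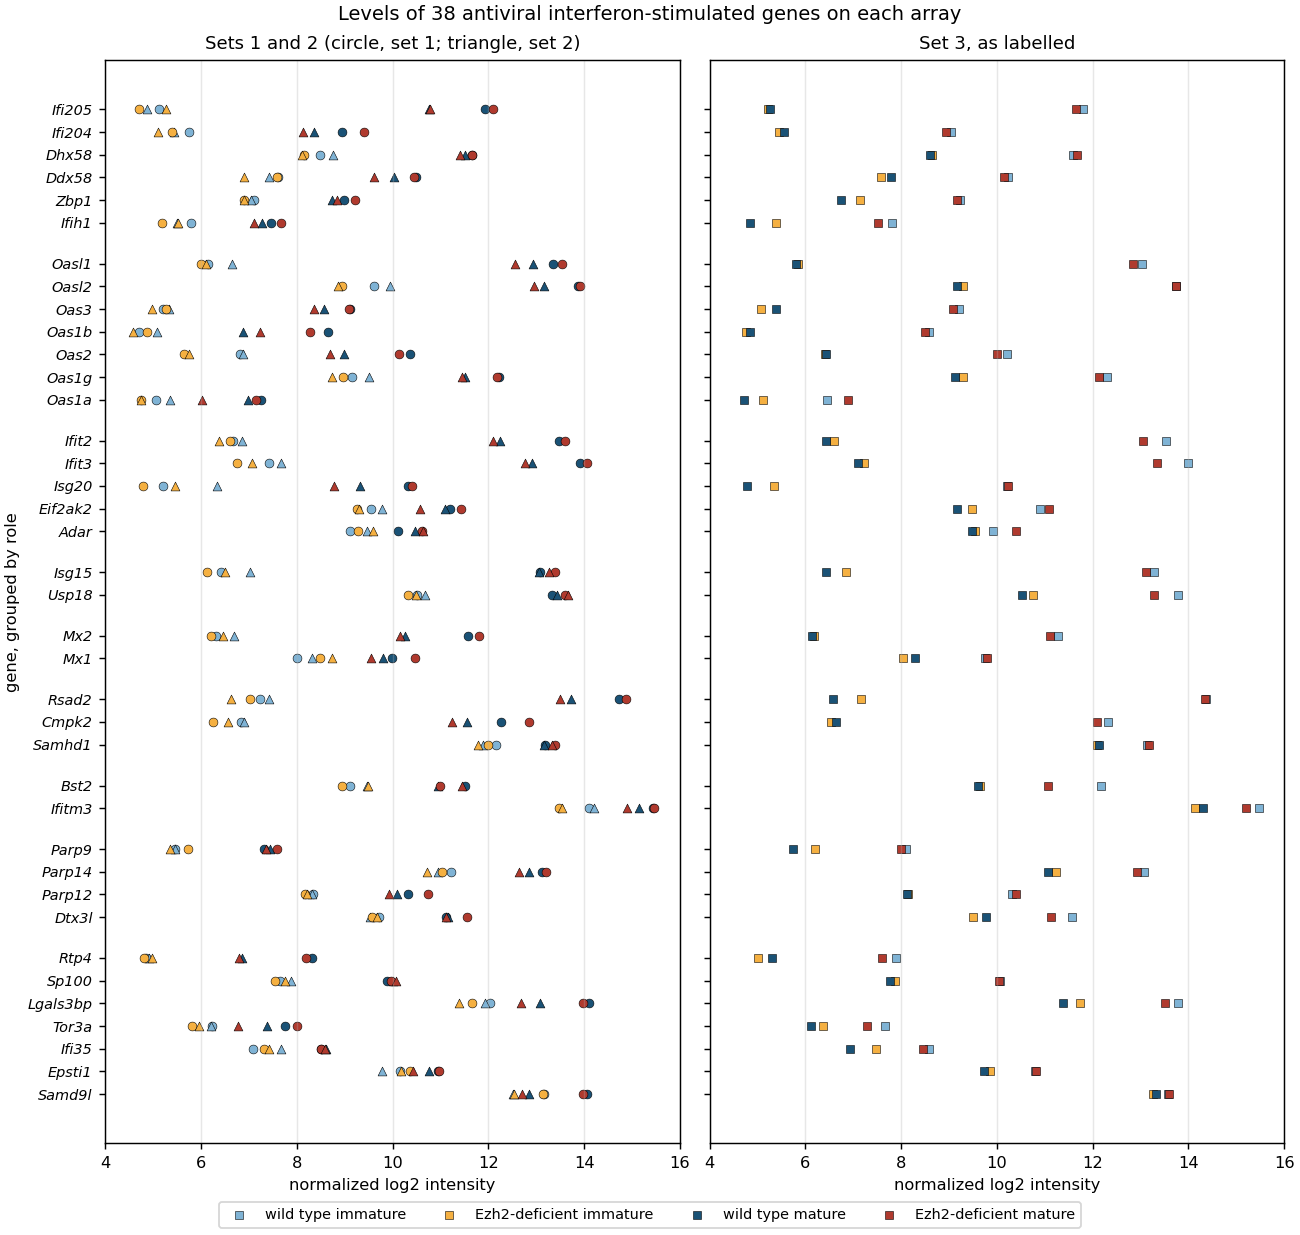
Normalized log2 intensity of each of the 38 tested genes on each array, in sets 1 and 2 (left; circles, set 1; triangles, set 2) and in set 3 as labelled (right; squares). Genes are grouped by role and, within a role, ordered by change with LPS. On the left, mature arrays lie above immature arrays for 37 of 38 genes within each genotype, against 30.8% of all genes in wild type and 31.8% in Ezh2-deficient cells. On the right, the array labelled wild type immature lies with the array labelled Ezh2-deficient mature.

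After LPS, 37 of the 38 antiviral genes rose in wild type cells, with a median log2 change of 2.36 and a range of 0.62 to 6.89. Across all genes, 12.6% rose, and the median change was -0.04. None of the 38 fell, against 17.7% of all genes. In Ezh2-deficient cells 36 of 38 rose, with a median of 2.49, against 15.2% of all genes that rose and 20.8% that fell. The test was limma's moderated test with Benjamini-Hochberg adjustment over all genes, with 2 arrays per group and calls made below an adjusted p of 0.05. In bulk RNA such as this, a change in the number of responding cells and a change of RNA per cell cannot be told apart. With all 12 arrays entered as labelled, no gene was called in either genotype, and the median change was 0.67 in wild type and 2.45 in Ezh2-deficient cells. Rises above 16-fold were seen for 9 of the 38 genes in wild type cells and for 36 of all 10908 genes (0.330%).

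Rsad2 had the largest rise of all 10908 genes in wild type cells. Its log2 level was 7.23 and 7.42 on the wild type immature arrays and 14.72 and 13.72 on the mature arrays. In Ezh2-deficient cells it was 7.01 and 6.63 before LPS and 14.88 and 13.49 after. The groups of each stage lay far apart, and the set 1 array was the higher in both mature pairs. The fitted changes were 6.89 ± 0.47 (SE) in wild type (119-fold; limma adjusted p = 0.0001345) and 7.37 in Ezh2-deficient cells (165-fold; limma adjusted p = 7.206e-05).

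Cmpk2, a mitochondrial nucleotide kinase encoded beside Rsad2 on chromosome 12, was at 6.83 and 6.91 before and at 12.27 and 11.56 after LPS in wild type cells. In Ezh2-deficient cells it went from 6.25 and 6.56 to 12.84 and 11.25. It rose by 5.04 in wild type (limma adjusted p = 0.0003941) and by 5.64 in Ezh2-deficient cells (limma adjusted p = 0.000182). Samhd1, which degrades the nucleotides viruses need for DNA synthesis, was already bright before LPS: its level was 12.15 and 11.89 in wild type immature cells and 13.19 and 13.17 in mature ones. On the Ezh2-deficient arrays it was 12.00 and 11.79, then 13.40 and 13.32. It rose by 1.16 in wild type (limma adjusted p = 0.001462) and by 1.47 in Ezh2-deficient cells, the smallest change of its role.

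All 6 tested sensors of foreign RNA and DNA rose in both genotypes, with a median change of 2.86 in wild type and 3.10 in Ezh2-deficient cells. Ifi205, of the DNA-binding p200 family, was at 5.12 and 4.87 in wild type immature cells, not above background on either array, and at 11.94 and 10.77 in mature cells. Its Ezh2-deficient levels were 4.69 and 5.28, then 12.09 and 10.78. Since the wild type immature level is only a limit, the rise there was at least 73.3-fold on the probe used (limma adjusted p = 0.0002356). A bound of this kind sets the mature mean against the lowest level of a detected probe on the immature arrays. Other detected probes of Ifi205 had smaller log2 changes in wild type cells, of 5.11 and 4.04, so that the size depended on the probe.

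Ifi204, a second p200 gene, was at 5.75 and 5.43 before and at 8.94 and 8.35 after LPS in wild type cells. Its levels in Ezh2-deficient cells were 5.40 and 5.11, then 9.41 and 8.14. The changes were 3.06 (limma adjusted p = 0.001496) and 3.53 (limma adjusted p = 0.0006441). Genes of the p200 family are close copies of each other, and whether these probes tell them apart was not tested.

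The RNA helicase sensors moved together. Ifih1 (MDA5), which binds long double-stranded RNA, was at 5.79 and 5.5 in wild type immature and at 7.45 and 7.28 in mature cells, against 5.18 and 5.53, then 7.67 and 7.11, in Ezh2-deficient cells. It had the smallest change of the sensors, 1.72 in wild type (limma adjusted p = 0.002577) and 2.04 in Ezh2-deficient cells. Ddx58 (RIG-I) rose by 2.75 and 2.80, its regulator Dhx58 (LGP2) by 2.97 and 3.40, and Zbp1, a sensor of Z-form nucleic acids, by 1.78 and 2.14, in wild type and Ezh2-deficient cells in that order.

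The 7 genes of the 2-5A synthetase family all rose in both genotypes. Their products make the 2′-5′ linked oligoadenylates that switch on RNase L, except Oasl1 and Oas1b, which lack that activity in mice. Oasl1 was at 6.14 and 6.65 in wild type immature and at 13.34 and 12.93 in mature cells. In Ezh2-deficient cells it went from 6.00 and 6.10 to 13.54 and 12.55. Its rise of 6.74 in wild type (107-fold; limma adjusted p = 5.801e-05) was second only to Rsad2 among all genes, and in Ezh2-deficient cells it was 7.00 (limma adjusted p = 2.753e-05).

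Oasl2 was at 9.61 and 9.94 in wild type immature cells and at 13.88 and 13.16 after LPS. The Ezh2-deficient levels were 8.95 and 8.85, then 13.91 and 12.96. The rises were 3.75 (limma adjusted p = 0.0003543) and 4.54 (limma adjusted p = 0.0001176). Before LPS both Ezh2-deficient arrays were below both wild type arrays, and after LPS the genotypes overlapped.

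Oas1a had the smallest change of the family. Its wild type levels were 5.05 and 5.36, then 7.26 and 6.98, and its Ezh2-deficient levels 4.75 and 4.75, then 7.14 and 6.01. The wild type change was 1.91 (limma adjusted p = 0.005825). In Ezh2-deficient immature cells it was not above background on either array, which makes the rise there at least 2.73-fold. On the probe used, Oas1b was not above background on any immature array of sets 1 and 2. The rise on that probe was at least 6.10-fold in wild type and at least 6.18-fold in Ezh2-deficient cells. A second detected probe had log2 changes of 2.59 in wild type and 2.29 in Ezh2-deficient cells. The C57BL/6 strain is known to carry a premature stop in this gene. Its wild type call was lost without the immature array of set 1 (limma adjusted p = 0.05005). Oas1g rose by 2.54 and 2.97, Oas2 by 2.83 and 3.72 and Oas3 by 3.58 and 3.60. Oas1a and Oas1g are close copies, and their ISRE matches lay within 2 bases of the same position.

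Of the effectors that act on RNA and translation, all 5 tested genes rose in both genotypes. Ifit2 was at 6.68 and 6.86 in wild type immature and at 13.47 and 12.25 in mature cells, against 6.61 and 6.38, then 13.61 and 12.09, in Ezh2-deficient cells. The rises were 6.09 (68.2-fold; limma adjusted p = 0.0003022) and 6.35 (81.7-fold). Its relative Ifit3 was at 7.43 and 7.67 before and at 13.92 and 12.91 after LPS in wild type cells.

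On the Ezh2-deficient arrays Ifit3 was at 6.75 and 7.07, then 14.05 and 12.76. It rose by 5.87 in wild type (58.5-fold; limma adjusted p = 0.0001936) and by 6.5 in Ezh2-deficient cells (90.3-fold; limma adjusted p = 8.249e-05). Their relative Ifit1 had 1 listed probe, with log2 levels between 4.57 and 5.30 on the 8 arrays and detection on 2 of all 12. Its promoter held 2 ISRE matches, and whether this probe reports the transcript was not tested. Isg20, an exonuclease of RNA, rose by 4.06 and 4.46, and Eif2ak2 (PKR), the kinase that halts translation on double-stranded RNA, by 1.49 and 1.72.

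Adar edits adenosines in double-stranded RNA and, on the probe used, had the smallest change of this role. Its other detected probes changed by 1 to 2.32 with LPS in wild type cells, so that this rank depended on the probe. Its levels in wild type cells were 9.12 and 9.48 before and 10.11 and 10.47 after LPS. In Ezh2-deficient cells they were 9.29 and 9.60, then 10.61 and 10.63. The changes were 0.99 (limma adjusted p = 0.008753) and 1.18 (limma adjusted p = 0.003424). Without the wild type immature array of set 1 the wild type call was lost (0.81; limma adjusted p = 0.06338).

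Both tested genes of the ISG15 system rose. Isg15 itself was at 6.41 and 7.02 in wild type immature and at 13.07 and 13.06 in mature cells. In Ezh2-deficient cells it was at 6.13 and 6.5, then 13.39 and 13.26. The rise was 6.35 ± 0.23 (SE) in wild type (81.4-fold; limma adjusted p = 4.232e-05) and 7.01 in Ezh2-deficient cells (129-fold; limma adjusted p = 1.217e-05).

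Usp18, the protease that removes ISG15 and also dampens the interferon receptor, was at 10.52 and 10.68 before and at 13.32 and 13.44 after LPS in wild type cells. Its Ezh2-deficient levels were 10.33 and 10.48, then 13.61 and 13.66. It rose by 2.78 (limma adjusted p = 6.04e-05) and by 3.23 (limma adjusted p = 2.088e-05). The 2 arrays of each group lay within 0.2 of each other.

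The GTPases Mx1 and Mx2 form rings that block incoming viral particles. Mx1, the gene whose promoter drives the Cre, was at 8.0 and 8.32 in wild type immature and at 9.98 and 9.79 in mature cells. In Ezh2-deficient cells it was at 8.49 and 8.73, then 10.46 and 9.55. The rise was 1.72 in wild type (limma adjusted p = 0.004092) and 1.39 in Ezh2-deficient cells (limma adjusted p = 0.008257). Without the Ezh2-deficient immature array of set 1 the second call was lost (limma adjusted p = 0.05809). C57BL/6 mice are known to carry a defective Mx1 allele, so the probe follows a transcript that gives no working protein.

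Whether Mx2 gives a working protein in these cells was not examined. As RNA, Mx2 had a larger change than Mx1. Its wild type levels were 6.31 and 6.68, then 11.57 and 10.25, and its Ezh2-deficient levels 6.21 and 6.47, then 11.80 and 10.16. The rises were 4.41 (21.3-fold; limma adjusted p = 0.001214) and 4.64 (25.0-fold; limma adjusted p = 0.0007486).

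Among membrane and entry factors, Bst2 (tetherin), which holds budding virus at the cell surface, was at 9.10 and 9.46 before and 11.51 and 10.95 after LPS in wild type cells. The Ezh2-deficient levels were 8.95 and 9.48, then 11.00 and 11.46. It rose by 1.95 (limma adjusted p = 0.001908) and 2.02 (limma adjusted p = 0.00125). Ifitm3, which hinders fusion of virus in endosomes, was at 14.11 and 14.21 in wild type immature cells and at 15.44 and 15.14 in mature ones.

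In Ezh2-deficient cells Ifitm3 was at 13.48 and 13.54, then 15.45 and 14.89. It rose by 1.13 in wild type (limma adjusted p = 0.006279) and by 1.66 in Ezh2-deficient cells (limma adjusted p = 0.0009595). Both of its Ezh2-deficient immature arrays were below both wild type ones.

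The 4 genes of ADP-ribosylation had similar changes, between 1.5 and 1.92 in wild type and between 1.72 and 2.13 in Ezh2-deficient cells. Parp9, an ADP-ribosyltransferase that pairs with the ubiquitin ligase Dtx3l, was at 5.46 on both wild type immature arrays and at 7.33 and 7.44 on the mature ones. Its Ezh2-deficient levels were 5.74 and 5.36, then 7.58 and 7.35. The rise was 1.92 in both genotypes (limma adjusted p = 0.0008484 in wild type and 0.0006245 in Ezh2-deficient cells).

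Parp14 was at 11.21 and 10.95, then 13.13 and 12.85, in wild type cells, and at 11.04 and 10.71, then 13.21 and 12.65, in Ezh2-deficient cells. It rose by 1.91 (limma adjusted p = 0.0009614) and 2.06. Dtx3l was at 9.72 and 9.54, then 11.11 and 11.15, in wild type cells and at 9.57 and 9.67, then 11.56 and 11.12, in Ezh2-deficient cells. Its changes of 1.5 (limma adjusted p = 0.0009761) and 1.72 were the smallest of this role, and Parp12, which can block translation, rose by 1.89 and 2.13.

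The remaining role held 7 tested genes, of which 6 rose in wild type and 5 in Ezh2-deficient cells. Rtp4, known as a chaperone of receptors and a binder of viral RNA, was not above background on any immature array of sets 1 and 2 (4.84 and 4.91 in wild type, 4.82 and 4.98 in Ezh2-deficient cells) and reached 8.33 and 6.86 in wild type and 8.20 and 6.79 in Ezh2-deficient mature cells. Its rise was at least 5.42-fold in wild type (limma adjusted p = 0.008016) and at least 5.14-fold in Ezh2-deficient cells (limma adjusted p = 0.008172). Without the Ezh2-deficient immature array of set 1 the second call was lost (limma adjusted p = 0.05103).

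Sp100, a component of nuclear bodies, was at 7.65 and 7.88 before and at 9.88 and 10.00 after LPS in wild type cells. In Ezh2-deficient cells it went from 7.55 and 7.74 to 9.97 and 10.08. It rose by 2.18 (limma adjusted p = 0.0002593) and 2.38 (limma adjusted p = 0.0001176). Tor3a rose by 1.34 and 1.5, Lgals3bp, a secreted glycoprotein, by 1.61 and 1.82, and Ifi35 by 1.18 in each genotype. When single arrays were left out, the Tor3a call was lost in 6 of 8 cases in wild type and in 3 of 8 in Ezh2-deficient cells (limma adjusted p up to 0.126), and the Lgals3bp call in 3 of 8 cases in each genotype (limma adjusted p up to 0.1335).

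Samd9l, a negative regulator of growth factor signalling and an inhibitor of poxviruses, was not called in either genotype. It was at 13.16 and 12.51 in wild type immature and at 14.06 and 12.85 in mature cells, and at 13.15 and 12.53, then 13.97 and 12.70, in Ezh2-deficient cells. The set 1 array was the higher in every group, so that the stages overlapped, while within each set the mature array was the higher, by 0.89 and 0.34 in wild type and by 0.82 and 0.17 in Ezh2-deficient cells. The change was 0.62 ± 0.51 (SE; limma adjusted p = 0.3983) in wild type and 0.49 (limma adjusted p = 0.4926) in Ezh2-deficient cells. Epsti1 rose in wild type by 0.89 (limma adjusted p = 0.01833), a call that was lost without the mature array of set 1 (limma adjusted p = 0.08495) and without the immature array of set 2 (limma adjusted p = 0.1226), while its change of 0.43 in Ezh2-deficient cells was not called (limma adjusted p = 0.1689). That difference between genotypes was itself not called, and it depended on the probe. A second detected probe of Epsti1 changed by 0.754 in wild type and by 0.752 in Ezh2-deficient cells.

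Of the 38 genes, 19 had at least 2 detected probes, and in all 19 every probe was higher after LPS in wild type cells. The size could differ between probes, as for Dtx3l, whose second probe changed by 0.22 against 1.5 for the one used. On set 3 the labelled Ezh2-deficient pair gave a median change of 2.39 with all 38 genes higher on the array labelled mature, and the labelled wild type pair a median change of -2.59 with all 38 genes lower on the array labelled mature.

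**Figure D3:**
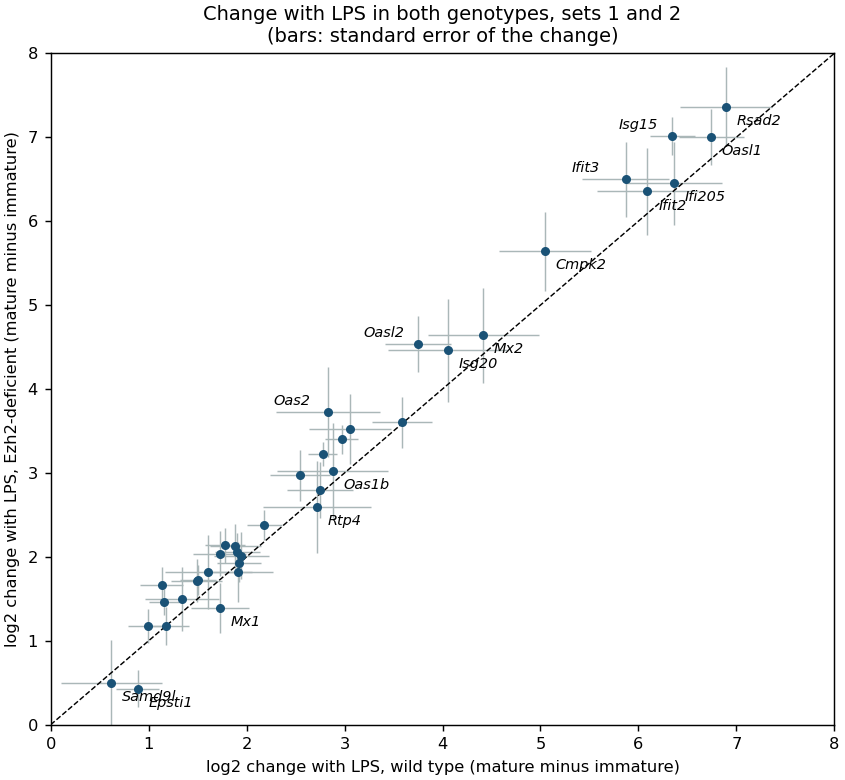
Log2 change with LPS of each of the 38 genes in wild type cells (horizontal axis) and in Ezh2-deficient cells (vertical axis), from sets 1 and 2, with standard errors. The dashed line marks equal change. The genes run along the line from Samd9l and Epsti1 near the origin to Rsad2 at 6.89 and 7.37, and 32 of 38 lie above it.

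The response was compared between genotypes through the difference of the LPS changes. It was positive, that is larger in Ezh2-deficient cells, for 32 of 38 genes, with a median of 0.23, against a median of 0.00 over all genes (-0.00199). None of the 38 genes was called and none of all 10908 (0% called; limma), with 0 of the 38 and 169 of all genes (1.55%) at an unadjusted p under 0.05. Usp18 had the smallest p, with a difference of 0.45 and a 95% interval of -0.02 to 0.92 (unadjusted p = 0.0583, limma adjusted p = 0.9997). For Isg15 the difference was 0.66 with an interval of -0.08 to 1.41 (unadjusted p = 0.075, limma adjusted p = 0.9997). Next came Dhx58 at 0.43 (interval -0.13 to 0.98), Ifitm3 at 0.53 (interval -0.18 to 1.23) and Oasl2 at 0.79 (interval -0.32 to 1.90). Each of these 5 intervals included 0. The median difference changed from 0.23 to -0.17 without the Ezh2-deficient mature array of set 1 and to 0.62 without that of set 2, so that its direction rested on single arrays.

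In immature cells no antiviral gene was called between genotypes, against 0.0275% of all genes (3 of 10908). The Ezh2-deficient levels were nevertheless lower for 32 of 38 genes, with a median difference of -0.24 against -0.01 over all genes. The median was -0.13 on the authors' deposited values and -0.16 when all detected probes of a gene were averaged. Both Ezh2-deficient arrays lay below both wild type arrays for 18 of 38 genes, against 17.1% of all genes, and above them for 2 of 38 (Epsti1 and Mx1), against 14.0%. The 18 were Dhx58, Ifi204 and Zbp1 of the sensors, Oas1a, Oas1g, Oas2, Oasl1 and Oasl2 of the synthetases, Ifit2, Ifit3 and Eif2ak2, Usp18, Rsad2 and Cmpk2, Ifitm3, Parp12, Tor3a and Lgals3bp. At an unadjusted p under 0.05 there were 3 of the 38 genes and 333 of all genes (3.05%). These comparisons use the same immature arrays as the LPS changes and the difference between them, so a lower immature level in Ezh2-deficient cells enters all of them.

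The levels behind the smallest p-values were as follows. Ifitm3 (14.11 and 14.21 in wild type, 13.48 and 13.54 in Ezh2-deficient cells) differed by -0.65 with a 95% interval of -1.15 to -0.15 (unadjusted p = 0.0169). Dhx58 was at 8.48 and 8.75 in wild type and at 8.14 and 8.11 in Ezh2-deficient cells, a difference of -0.48 with an interval of -0.87 to -0.09 (unadjusted p = 0.0215). For these genes the gap between genotypes was wider than that between the arrays of a group. Oasl2 differed by -0.87 (interval -1.65 to -0.09, unadjusted p = 0.033). Oas2 was at 6.82 and 6.88 in wild type and at 5.64 and 5.75 in Ezh2-deficient cells, a difference of -1.15 with an interval of -2.38 to 0.09 (unadjusted p = 0.0641). Oas2 had the widest gap of the 38 genes in immature cells, and Isg15, at -0.40 (interval -0.93 to 0.13, unadjusted p = 0.119), was the fifth by p. After adjustment over all genes limma's p rounded to 1 for each of these 5 genes. Mx1 ran the other way, at 0.45 with an interval of -0.24 to 1.13 (unadjusted p = 0.169).

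Within set 1 the Ezh2-deficient immature array was lower for 31 of 38 genes (median -0.18), and within set 2 for 29 of 38 (median -0.29), whereas 49.7% and 54.4% of all genes were lower there. On set 3 the array labelled Ezh2-deficient immature was lower for all 38, with a median of -2.60. Of 13 tested neutrophil markers, 12 had a lower mean on the Ezh2-deficient immature arrays (median -0.58), and none was called. Their summed intensity overlapped, at 11700 to 29300 in wild type and 5010 to 21800 in Ezh2-deficient immature cells. The gap of these markers between sets 1 and 2 was wider, with medians of 1.47 in wild type and 2.16 in Ezh2-deficient immature cells. Macrophage markers were lower for 7 of 9, with a summed intensity of 23500 to 26400 in wild type and 19100 to 20700 in Ezh2-deficient cells. The part of either in the antiviral genes was not tested. Plasmacytoid dendritic cells are known for high interferon output, and of their markers Ccr9, Ly6d and Klk1 were not detected. The summed intensity of the 7 tested markers was 2300 to 2510 in wild type and 2250 to 2420 in Ezh2-deficient immature cells. In mature cells it was 3060 to 3230 in wild type and 3560 to 3860 in Ezh2-deficient cells. There 4 of the 7 were higher in Ezh2-deficient cells and 3 lower, none was called, and their part was not tested.

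In mature cells no antiviral gene was called between genotypes either, against 0.0183% of all genes (2 of 10908). The median difference was -0.01, with 22 of 38 genes lower in Ezh2-deficient cells. At an unadjusted p under 0.05 there were 0 of the 38 genes and 522 of all genes (4.79%). No gene lay lower on both Ezh2-deficient arrays than on both wild type ones, against 15.1% of all genes. Adar, Isg15, Samhd1 and Usp18 lay higher on both, 4 of 38 against 12.8% of all genes.

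The smallest p in mature cells was that of Usp18, with a difference of 0.25 and an interval of -0.08 to 0.59 (unadjusted p = 0.118). The difference of Adar was 0.33 (interval -0.14 to 0.81), that of Samhd1 0.18 (interval -0.18 to 0.55) and that of Dtx3l 0.21 (interval -0.21 to 0.63). Oas1a ran lower, at -0.54 with an interval of -1.37 to 0.29. Limma's adjusted p was 0.9997 for each of these 5 genes.

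The mature comparison also changed direction between sets. Within set 1, 28 of 38 genes were higher on the Ezh2-deficient mature array (median 0.13), and within set 2, 29 of 38 were lower (median -0.17). Neutrophil markers were lower on the Ezh2-deficient mature arrays for 13 of 13 (median -0.47), with a summed intensity of 38700 to 50100 in wild type and 23900 to 38800 in Ezh2-deficient cells, and their part was not tested. The median over both sets was -0.49 without the Ezh2-deficient mature array of set 1 and 0.38 without that of set 2. Averaged over both stages the median was -0.12 with 29 of 38 genes lower, none of the 38 called against 0.0550% of all genes (6 of 10908), and 1 of 38 against 665 of all genes (6.10%) at an unadjusted p under 0.05. The median was -0.36 without the Ezh2-deficient mature array of set 1, -0.30 without the wild type mature array of set 2 and 0.037 without the Ezh2-deficient mature array of set 2. The gene past that unadjusted threshold was Ifitm3, at -0.39 with an interval of -0.74 to -0.03 (unadjusted p = 0.0356, limma adjusted p = 0.7948). The next by p were Dhx58 at -0.27, Oasl2 at -0.48, Oas1a at -0.50 and Oas2 at -0.70, each with an interval that included 0. On the mature arrays Dhx58 was at 11.65 and 11.52 in wild type and at 11.65 and 11.41 in Ezh2-deficient cells. Oas2 was there at 10.37 and 8.99 in wild type and at 10.14 and 8.70 in Ezh2-deficient cells, so that both genes overlapped between genotypes after LPS.

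**Figure D4:**
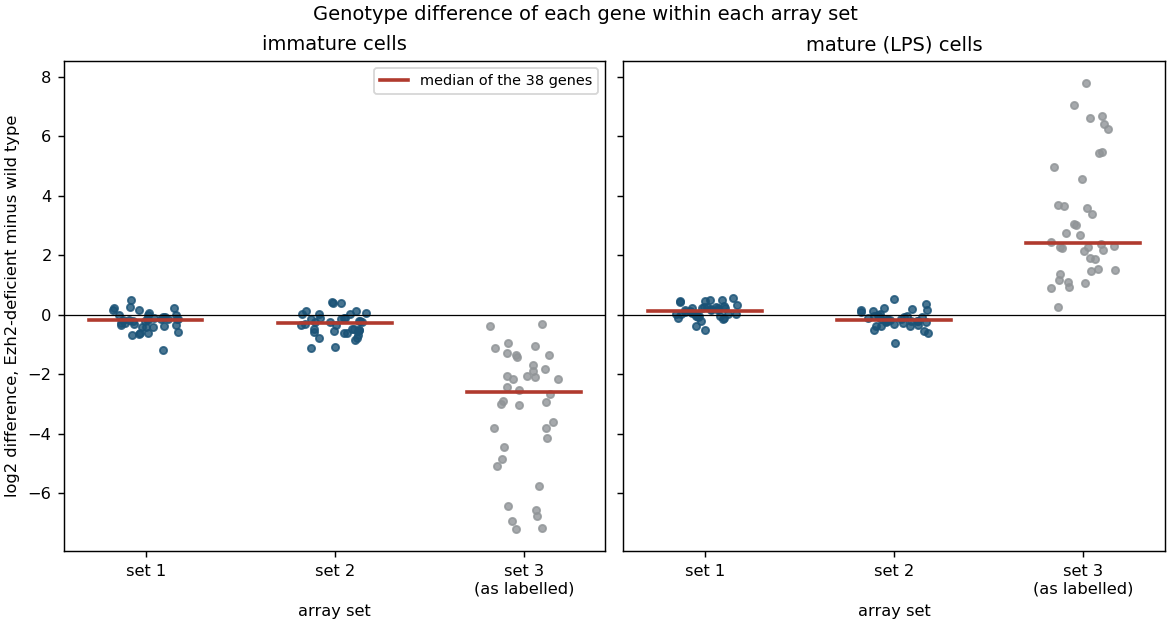
Log2 difference between the Ezh2-deficient and the wild type array of the same set for each of the 38 genes (points), in immature (left) and mature cells (right), with the median of the 38 genes (bars). In sets 1 and 2 the medians are -0.18 and -0.29 in immature and 0.13 and -0.17 in mature cells. Set 3, as labelled, lies at -2.60 and 2.40, and its wild type pair ran against its stage labels.

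Between the mature arrays of a genotype, most of the antiviral genes differed by set. The set 1 array was higher than the set 2 array for 32 of 38 genes in wild type (median gap 0.39) and for 33 of 38 in Ezh2-deficient cells (median gap 0.83), against 47.0% and 48.3% of all genes. Both set 1 mature arrays lay above both set 2 mature arrays for 29 of 38 genes, a pattern that 26.2% of all genes showed. The gap reached 1.77 for Oas1b in wild type and 1.64 for Mx2 in Ezh2-deficient cells. For 31 of 38 genes the difference between the genotypes' mature means was smaller than the gap between arrays in each genotype. The share of all genes for which this held was not determined. A gap between sets that both genotypes share does not enter the difference between their means, so this count does not measure the precision of that difference. The immature arrays showed no such order, with 13 of 38 genes higher on set 1 in wild type and 17 of 38 in Ezh2-deficient cells.

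The exceptions were few. Ifi35 and Sp100, 2 of 38 against 30.6% of all genes, were lower on both set 1 mature arrays than on both set 2 arrays, and Adar and Usp18 were lower on set 1 within each genotype. Isg15 differed by little between sets, at 13.07 and 13.06 in wild type and at 13.39 and 13.26 in Ezh2-deficient mature cells. Neutrophil markers were higher on set 1 for 12 of 13 in wild type and 13 of 13 in Ezh2-deficient mature cells, and also for 12 of 13 in the immature cells of each genotype, where the antiviral genes showed no such order. Macrophage markers ran as the antiviral genes did: they were higher on set 1 for 7 of 9 in each mature group (median gaps 0.42 in wild type and 0.41 in Ezh2-deficient cells), and for 4 of 9 and 2 of 9 in the immature groups. Their summed intensity on the mature arrays was 32100 on set 1 and 27100 on set 2 in wild type, and 31800 and 23600 in Ezh2-deficient cells. Dendritic cell maturation genes were higher on set 2 for 13 of 14 in wild type and 11 of 14 in Ezh2-deficient mature cells. Their part in the gap of the antiviral genes, and that of the serum-free period some mature cells underwent, was not tested. The interferon beta transcript, Ifnb1, was not higher on set 1. Its level was 7.06 on set 1 and 8.35 on set 2 in wild type mature cells, and 7.69 and 7.79 in Ezh2-deficient ones. Levels earlier after LPS were not measured, and the part of interferon beta in the gap was not tested.

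**Figure D5:**
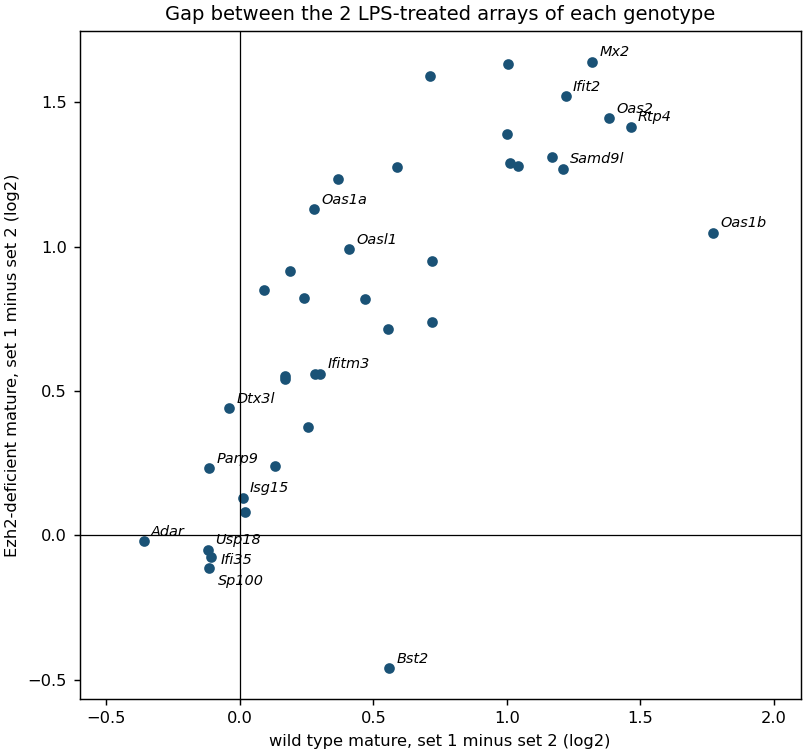
Gap between the set 1 and the set 2 array of mature cells for each of the 38 genes, in wild type (horizontal axis) and Ezh2-deficient cells (vertical axis), in log2. Most genes lie in the upper right quadrant, higher on set 1 in both genotypes. Adar, Ifi35, Sp100 and Usp18 lie lower left, and Bst2 falls below 0 in Ezh2-deficient cells.

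Genes upstream of the antiviral effectors changed less uniformly. Of 41 genes of interferon production and signalling, 34 were tested: 15 rose and 3 fell with LPS in wild type cells, and 14 rose and 3 fell in Ezh2-deficient cells, read against the shares of all genes given above. Ifnb1 was not above background on any immature array of sets 1 and 2 and rose at least 5.84-fold in wild type (limma adjusted p = 0.0009822) and at least 6.11-fold in Ezh2-deficient cells (limma adjusted p = 0.0005892). Irf7, the factor that amplifies interferon production and is itself interferon-stimulated, was at 6.00 and 6.53 before and at 13.27 and 12.17 after LPS in wild type cells, and at 5.21 and 5.38, then 13.43 and 12.51, in Ezh2-deficient cells. It rose by 6.46 (limma adjusted p = 0.0001192) and 7.67 (limma adjusted p = 4.46e-05), and like the antiviral genes it was higher on set 1 in both mature groups.

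Both factors of the ISRE-binding complex named above rose less. Stat2 rose by 2.20 and 2.75 and Irf9 by 1.12 and 1.39 in wild type and Ezh2-deficient cells, in that order. Irf3, which acts by phosphorylation, changed by -0.37 and -0.33 and was not called. Of the receptor chains, Ifnar2 rose by 1.08 in wild type (limma adjusted p = 0.02938), its change of 0.73 in Ezh2-deficient cells was not called (limma adjusted p = 0.09526), and Ifnar1 was below the filter on detection. Sting1, the adaptor of DNA sensing, fell by 1.96 in wild type, and Ifngr1, a chain of the interferon gamma receptor, fell by 1.68 in wild type and 2.26 in Ezh2-deficient cells. None of the 34 genes was called between genotypes, in either stage or over both.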

How the data were processed

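RNA from 12 samples was measured on Illumina bead arrays, 3 per group. For each array the authors deposited an intensity averaged over beads and the p-value of detection of each probe, per the file headers, neither log-transformed nor normalized between arrays. The authors also deposited a table of quantile-normalized log2 values, which was used only as an alternative. The submitters' processing notes list BeadStudio, limma and R 2.15.2, and their roles are not given in the sources used here. The deposited intensities of the 12 arrays went through limma's neqc (limma 3.58.1 under R 4.3.3; normexp background correction, offset 16, quantile normalization, log2). A probe was kept if detected (p under 0.05) on 3 or more arrays, and the brightest probe stood for each of 10908 genes.

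Group means of the 8 arrays of replicate numbers 1 and 2 were fitted with limma (lmFit, contrasts, eBayes with an intensity trend), with two-sided p-values adjusted by Benjamini-Hochberg over all genes and called under 0.05. SE is the standard error of the fit, and intervals are 95% intervals from it. The number of arrays limits the precision. The procedure was tested on simulated data. Genes given with all values were, per role, the 2 with the largest and the 1 with the smallest change with LPS in wild type cells, and, for each genotype comparison and for the difference between the LPS responses, the 5 with the smallest p. Members and lists were chosen with earlier results of these data known. Motifs were searched on both strands of RefSeq promoters (GRCm38.p6). Alternatives were the authors' values, another offset, other probe, filter and variance settings, a replicate block, all 12 arrays and leaving out single arrays; those for counts of non-overlapping genes were chosen after seeing the data.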

Additional observations from a re-analysis of the deposited data

Results flagged for a closer look

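The genotype difference of Usp18 (log2, Ezh2-deficient minus wild type) changed sign between the 2 stages. It was -0.198 in immature and 0.253 in mature cells, and in each stage the arrays of the genotypes did not overlap. The difference between these differences was 0.45 (unadjusted p = 0.0583, limma adjusted p = 0.9997), so it was not called. This pattern was shown by 1 of the 38 antiviral genes (2.63%) and by 269 of all genes (2.47%). On a second detected probe of Usp18 the genotype differences were -0.0323 in immature and 0.22 in mature cells.

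The median log2 level of the 38 antiviral genes was 11.1 on the array labelled wild type immature 3, which entered no test, against 7.33 and 7.55 on the other two wild type immature arrays.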

How the results depend on the processing

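With all 12 arrays as labelled, 0 of the 38 genes were called in wild type and 0 in Ezh2-deficient cells (0 of all genes in each). Under the other settings that kept all 8 arrays the counts were 36 to 38 of 38. Leaving out single arrays gave 33 to 37 called genes in wild type and 32 to 36 in Ezh2-deficient cells. The calls lost were those of Oas1b, Adar, Tor3a, Lgals3bp and Epsti1 in wild type and of Mx1, Rtp4, Tor3a and Lgals3bp in Ezh2-deficient cells. In the genotype comparisons and in the difference between the LPS responses the count was 0 of 38 under every alternative run. With a replicate block, 38 genes were called with LPS in wild type and 37 in Ezh2-deficient cells, and the calls gained included Samd9l in wild type (limma adjusted p = 0.03089). In that paired fit 0 of the 38 genes and 16 of all genes were called between genotypes in immature cells, 13 in mature cells and 59 over both stages. With 2 sets the numbers do not establish a pairing (correlations of same-numbered deviations 0.218 to 0.717).

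Differences of single genes that changed sign were not called. Samd9l with LPS in Ezh2-deficient cells ran from -0.142 (without the mature array of set 1) to 1.13 when single arrays were left out. Oas1a in mature cells was at 0.362 with all 12 arrays and ran from -1.11 to 0.0241 (without the Ezh2-deficient array of set 2) when single arrays were left out, and Dtx3l in mature cells ran from -0.00824 (without the Ezh2-deficient array of set 1) to 0.432. Medians over the 38 genes also changed sign when single mature arrays were left out: that of the mature genotype difference ran from -0.493 to 0.377, that over both stages from -0.36 to 0.0374 and that of the difference between the LPS responses from -0.168 to 0.622. The cause was not tested. The median change with LPS was 1.81 in wild type and 1.92 in Ezh2-deficient cells on the authors' deposited values. With all 12 arrays as labelled the median genotype difference was -0.999 in immature and 0.873 in mature cells. The 18 genes lower in immature Ezh2-deficient cells without overlap were 16 when all detected probes were averaged.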
